A study of Mus musculus with 4 samples.

Results

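The keratin genes of the mouse salivary gland were examined on 4 whole mouse genome arrays, by taking every non-control probe whose gene name is Krt followed by digits alone. This gave 62 of 55681 probes and 47 of 34844 genes. Of these, 25 keratin genes (53.2%) were bright enough to be compared between genotypes, among 22312 such genes in all (64% of the genes on the array). The RNA came from female C57/BL6 mice at 10 weeks of age, and 2 arrays carry the label Myd88-KO and 2 the label Wildtype. Myd88 encodes an adaptor protein of Toll-like and interleukin-1 receptors, and the comparison asks how its absence affects gene expression in the glands. The labels call the knockout genotype Myd88-null and, per the study's methods, the mice compared were bred from heterozygous parents. The labels name submandibular and sublingual glands as the source, the methods name whole submandibular glands, and both state that lymph nodes, connective tissue and fat were dissected away. Since neither source says that the arrays of a group come from separate mice, the p-values below measure only the spread between these arrays. The study's legends give n = 3 for each genotype, and 2 arrays of each were analysed here.

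Keratins are the proteins of the intermediate filaments of epithelial cells. A filament is built from pairs of 1 type I and 1 type II keratin, and the pair that a cell makes reflects its kind. Simple epithelia such as the secretory and duct cells of glands use Krt8 and Krt18 with Krt7 or Krt19, whereas basal duct cells and the contractile myoepithelial cells around acini use Krt5 and Krt14. Other keratins belong to the upper layers of skin and mucosa, or to the hair shaft and its sheaths.

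Relative to the Wildtype arrays, the signals of Krt8 and Krt18 were higher on both Myd88-KO arrays, by 0.68 and 0.54 on the log2 scale (1.61-fold and 1.46-fold). Krt7 and Krt23 lay in the same direction, at 0.37 and 0.31, and Krt19 in the other, at -0.28. Among basal keratins Krt15 was lower by 0.93 on the log2 scale (1.91-fold), while Krt5 and Krt14 differed by -0.27 and -0.07. After adjustment over all genes, limma called 0 of the 25 keratins at a threshold of 0.05, and 0 of all 22312 genes (background 0%). Without adjustment Krt7, Krt8, Krt17, Krt18, Krt73, Krt81 and Krt85 had p under 0.05 with higher values and Krt15 and Krt79 with lower values on the Myd88-KO arrays. These are 7 and 2 of the 23 keratins whose tested probe was well above background on all 4 arrays, beside 10.2% higher and 5.89% lower among all genes so read. Krt36 also had p under 0.05, with lower values, but it entered the test only through the Wildtype arrays, where it was above background. The filter thus favoured a lower Myd88-KO value. With it the counts were 7 and 3 of 25, beside 9.82% and 6.83% of all genes tested.

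The probes behind these values are 60 bases long and match the sense strand of the transcript. Probes of the simple keratins Krt8, Krt18, Krt7 and Krt19 and of the basal keratins Krt14 and Krt15 follow. They were read from the array files, with positions in NCBI37/mm9. The capitals mark the stop codon in the probes of Krt18 and Krt15, which are shown up to that codon, and the other sequences hold no capitals. Krt8 is shown by its second probe, not by the brighter one that was tested.
Krt8, chr15:101828827-101828886, minus strand: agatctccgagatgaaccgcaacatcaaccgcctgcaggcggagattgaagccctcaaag
Krt18, chr15:101862341-101862400, plus strand: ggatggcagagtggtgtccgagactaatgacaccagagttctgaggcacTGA
Krt7, chr15:101253718-101253777, plus strand: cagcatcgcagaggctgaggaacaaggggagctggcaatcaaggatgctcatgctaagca
Krt19, chr11:100002392-100002451, minus strand: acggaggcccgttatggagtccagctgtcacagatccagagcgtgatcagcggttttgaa
Krt14, chr11:100064683-100065288, minus strand: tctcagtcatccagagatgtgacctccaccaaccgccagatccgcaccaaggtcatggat
Krt15, chr11:99993331-99993390, minus strand: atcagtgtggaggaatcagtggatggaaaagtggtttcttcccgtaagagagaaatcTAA
The Krt14 probe covers 606 bases of the genome, more than its own 60, so it joins 2 exons. By their brightest probes, 25 keratin genes lie on chromosome 11 and 21 on chromosome 15, and 1, Krt85, has no position in the files. Krt18 is the type I keratin found among the type II genes on chromosome 15, where its probe and the brighter Krt8 probe are 35143 bases apart.

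The signal of a spot was read as the log2 of the processed intensity minus the 75th percentile of that array, so that a value of 0 is the signal that 75% of the spots do not exceed. A probe was called well above background by the scanner software. The 4 arrays share 1 slide and were scanned together. Between 52.2% and 74.2% of probes were well above background, with the higher shares on Myd88-KO array 2 (68.4%) and Wildtype array 1 (74.2%) and the lower ones on Myd88-KO array 1 (52.2%) and Wildtype array 2 (55.1%), so the range within each group exceeded the difference between groups. No spot was saturated. The Myd88 probe itself read 1.51 and 1.41 on the Myd88-KO arrays and 1.15 and 1.07 on the Wildtype arrays. It is not lower on the arrays labelled Myd88-KO and does not check the labels, since the sources used here do not state which part of the gene was deleted. Groups are therefore named by their labels. With 2 arrays against 2, an exact two-sided permutation test cannot give a p below 0.333, and so few arrays limit how precise each value is.

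Of the 47 keratin genes, 23 (48.9%) were well above background on all 4 arrays by their brightest probe, against 58.8% of all genes on the arrays. All 5 basal and activated keratins and 5 of 6 simple epithelial keratins were among them, with Krt20, a keratin of intestinal and urothelial surface cells, the exception. In the suprabasal and mucosal group 6 of 13 were detected on all arrays, and among hair and root sheath keratins 5 of 21. Krt42 and Krt222, which fall in none of these groups, were also detected on all arrays. Thus most keratins of glandular epithelium were read on every array, and most of those of skin and hair were not.

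The number of keratins read on an array followed the detection of all probes. It was 23 and 34 on Myd88-KO arrays 1 and 2 and 38 and 24 on Wildtype arrays 1 and 2, which is 48.9%, 72.3%, 80.9% and 51.1% of the 47 genes. Over all genes the shares were 60.8%, 74.8%, 80.1% and 63.3%. Of the 22 keratins that could not be compared, 8 were well above background on Myd88-KO array 2 and Wildtype array 1 alone (Krt4, Krt20, Krt24, Krt26, Krt27, Krt39, Krt71 and Krt74). A further 5 passed on Wildtype array 1 alone (Krt25, Krt32, Krt34, Krt75 and Krt78) and Krt83 on Myd88-KO array 2 alone. The other 8 (Krt1, Krt12, Krt35, Krt40, Krt76, Krt77, Krt82 and Krt84) passed on no array by their brightest probe. Each of these 22 genes was not well above background on at least 2 arrays, and their differences are not described.

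**Figure D1:**
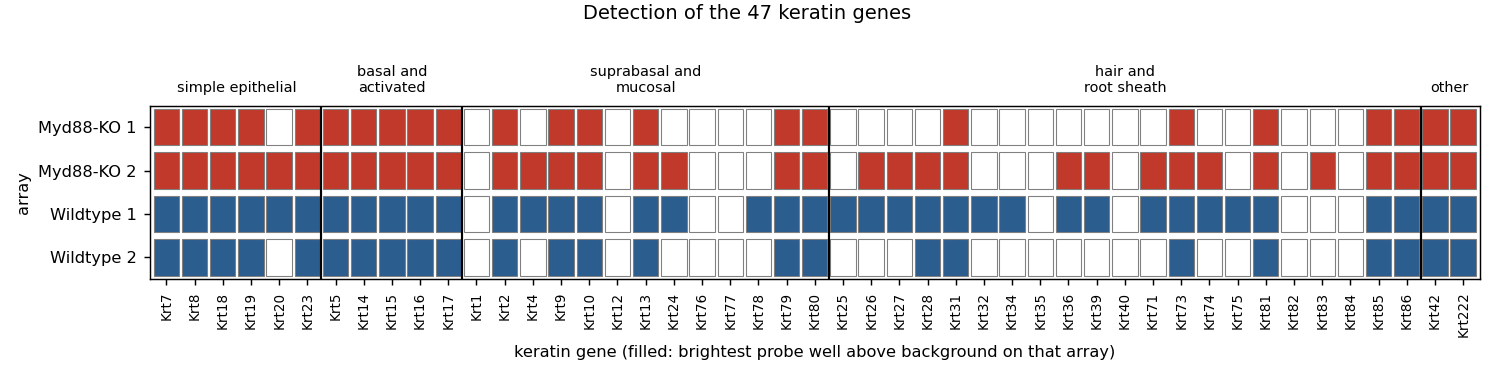
Detection of the 47 keratin genes (columns, grouped by role) on the 4 arrays (rows), where a filled cell means that the gene's brightest probe was well above background. The Myd88-KO 2 and Wildtype 1 rows hold 34 and 38 filled cells and the other rows 23 and 24.

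The simple epithelial keratins were compared first, as they form the filaments of acinar and duct cells. Krt8, the type II member of the pair, read 6.40 and 6.25 on the Myd88-KO arrays and 5.64 and 5.64 on the Wildtype arrays. Both Myd88-KO arrays thus lay above both Wildtype arrays. The means were 6.32 ± 0.10 and 5.64 ± 0.0061 (SD, n = 2 each). The log2 difference was 0.68 with a standard error of 0.11 (95% interval 0.37 to 1.00, limma adjusted p = 0.197). The second Krt8 probe, shown above, read 5.0 and 4.88 against 4.37 and 4.22, a difference of 0.65. The files list the brighter Krt8 probe with a cDNA clone and no RefSeq transcript, and the second with the RefSeq transcript of Krt8, so the direction does not rest on one design.

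Krt18, the type I partner of Krt8, read 8.25 and 8.36 on the Myd88-KO arrays and 7.77 and 7.76 on the Wildtype arrays. The groups did not overlap, and the difference of 0.54 (standard error 0.10, 95% interval 0.25 to 0.83) had a limma adjusted p of 0.204. When limma let the spread follow the signal and resist outliers (trended, robust moderation), Krt8 and Krt18 were the only 2 keratins to pass the adjusted threshold, at adjusted p = 0.0356 and 0.0364, among 482 genes (2.16%). In the other settings tried neither was called.

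Krt7, a type II keratin of ducts, read 3.57 and 3.47 against 3.04 and 3.26. Its difference was 0.37 with a standard error of 0.13 (limma unadjusted p = 0.0494, adjusted p = 0.299). Krt23, a type I keratin, read 6.16 and 6.26 against 5.79 and 6.01, and its difference was 0.31 (standard error 0.13, adjusted p = 0.349). Krt19, a type I keratin without the usual tail domain and a common marker of ducts, read -0.30 and -0.49 on the Myd88-KO arrays and -0.09 and -0.12 on the Wildtype arrays. It was thus the one simple keratin with both Myd88-KO arrays below both Wildtype arrays, at a difference of -0.28 (standard error 0.12, adjusted p = 0.348). In this group, 4 of 5 tested members lay above 0 and 3 had an unadjusted p under 0.05 upward, with a median of 0.37, against a median of 0.06 over all genes tested. Of all genes tested, 59.6% lay above 0 and 9.82% had such a p upward. Krt20 read -4.35 and -2.37 against -2.57 and -5.48 and was not well above background on Myd88-KO array 1 and Wildtype array 2.

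**Figure D2:**
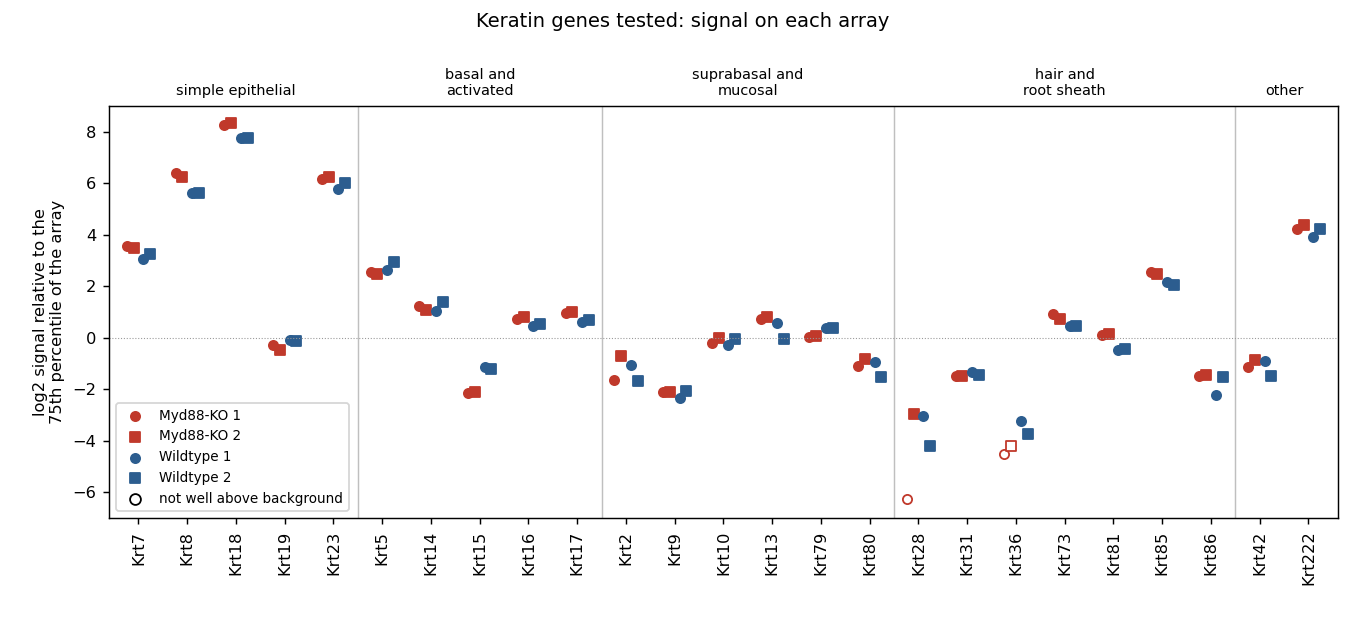
Log2 signal relative to the 75th percentile of the array (vertical axis) for the 25 keratin genes tested, with red for Myd88-KO and blue for Wildtype, circles for array 1, squares for array 2 and open symbols for values not well above background. Both red points lie above both blue points in Krt8 and Krt18 and below them in Krt15 and Krt79.

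The basal keratins Krt5 and Krt14 pair with each other in basal duct cells and myoepithelial cells. Krt5 read 2.57 and 2.46 on the Myd88-KO arrays and 2.64 and 2.93 on the Wildtype arrays, and its difference was -0.27 (standard error 0.15, adjusted p = 0.440). Its second probe gave -0.23. Krt14 read 1.23 and 1.06 against 1.04 and 1.40, so its groups overlapped, and its difference of -0.07 had a 95% interval of -0.56 to 0.42. Krt5 was thus somewhat lower on both Myd88-KO arrays, with a 95% interval of -0.69 to 0.15, and the intervals of both genes include 0.

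Krt15, a type I keratin of basal cells that also marks stem cells of the hair follicle, read -2.13 and -2.10 on the Myd88-KO arrays and -1.15 and -1.21 on the Wildtype arrays. The arrays of each group read nearly alike, and the groups did not overlap. Its means were -2.11 ± 0.021 and -1.18 ± 0.042 (SD, n = 2 each). The log2 difference of -0.93 (standard error 0.098, 95% interval -1.21 to -0.65) had the smallest unadjusted p of the keratins, 0.000929 in limma, and an adjusted p of 0.194. Its size exceeded that of 94.6% of all genes tested. Leaving out any 1 array kept the difference between -0.96 and -0.90, and with normexp background correction it was -0.48.

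Krt16 and Krt17 are type I keratins that epidermis makes under stress or after wounding, and Krt17 is also made by basal cells of glands. Krt16 read 0.73 and 0.79 against 0.44 and 0.53, a difference of 0.28 (standard error 0.10, adjusted p = 0.317). Krt17 read 0.98 and 0.99 against 0.63 and 0.69, a difference of 0.32 (standard error 0.097, unadjusted p = 0.0325, adjusted p = 0.263 in limma). Both had their Myd88-KO arrays above their Wildtype arrays. The 5 basal and activated keratins therefore divided, with 2 above and 3 below 0. Their median of -0.07 had no firm sign, at 0.01 without Myd88-KO array 2 and 0.11 without Wildtype array 2.

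**Figure D3:**
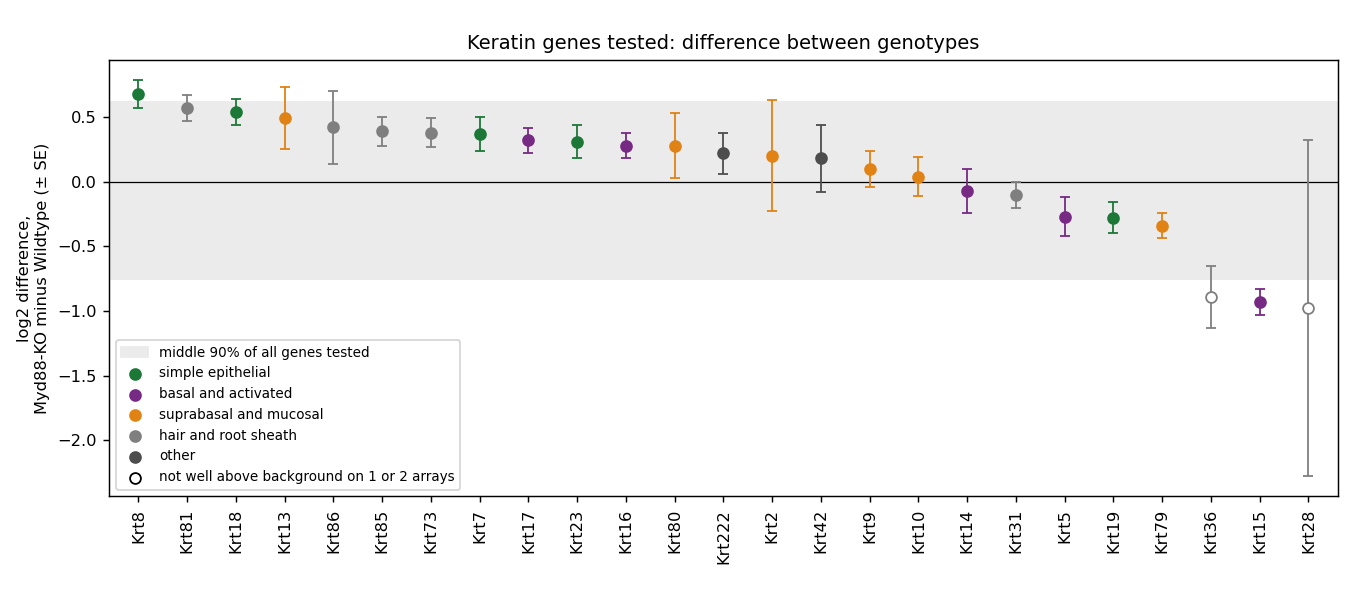
Log2 difference, Myd88-KO minus Wildtype, with its standard error from limma for the 25 keratin genes tested, in order of size and coloured by role. The grey band holds the middle 90% of all 22312 genes tested, from -0.75 to 0.62, and Krt8 lies above it while Krt15, Krt36 and Krt28 lie below it.

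The keratins of upper skin layers and of mucosa came next. Krt79, a type II keratin of the follicle opening, read 0.02 and 0.07 on the Myd88-KO arrays and 0.38 and 0.39 on the Wildtype arrays. Its groups did not overlap, and the difference of -0.34 (standard error 0.097) had an unadjusted p of 0.0281 and an adjusted p of 0.255 in limma. Krt13, the type I keratin of oral and oesophageal mucosa, read 0.71 and 0.79 against 0.56 and -0.03. Its difference of 0.49 had a standard error of 0.24 (adjusted p = 0.397), since the Wildtype arrays stood further apart from each other than Wildtype array 1 from the Myd88-KO arrays, and it was 0.19 without Wildtype array 2 and 0.78 without Wildtype array 1. The second Krt13 probe gave 0.21 and was read on 2 arrays alone. Krt4, the usual partner of Krt13, was not tested.

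Krt10, the type I keratin of differentiating epidermis, read -0.20 and -0.02 against -0.28 and -0.03, a difference of 0.04 (95% interval -0.38 to 0.46), and its second probe gave 0.12. Its partner Krt1 was well above background on no array. Krt2, an epidermal type II keratin, read -1.64 and -0.69 against -1.04 and -1.68, with overlapping groups and a difference of 0.20 (standard error 0.43). A second Krt2 probe that was well above background on no array stood at 1.15. Krt9, a type I keratin of palms and soles, read -2.10 and -2.09 against -2.33 and -2.06, a difference of 0.10. Krt80, a type II keratin of differentiating epithelia, read -1.08 and -0.83 against -0.94 and -1.53, a difference of 0.28 (standard error 0.25). In this group of 6 tested genes 5 lay above 0, with a median of 0.15 that was 0.02 without Myd88-KO array 2 and 0.07 without Wildtype array 2, and Krt79 was the one with an unadjusted p under 0.05. Of all genes tested, 59.6% lay above 0 and 6.83% had such a p downward.

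Of the hair and root sheath keratins 7 were tested, a group that builds the shaft and its inner sheath and is not a known feature of salivary epithelium. The type II members Krt81 and Krt83 have probes so alike that they are shown together, with capitals for the bases that both share when they are laid over each other.
Krt81, chr15:101290583-101290642, minus strand: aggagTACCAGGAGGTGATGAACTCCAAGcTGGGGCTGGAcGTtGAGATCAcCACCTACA
Krt83, chr15:101263556-101263615, minus strand: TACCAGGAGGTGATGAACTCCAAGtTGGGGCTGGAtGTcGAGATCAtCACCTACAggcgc
The probes match at 51 of the 55 bases over which they overlap. The files list the Krt81 probe with RefSeq transcripts of Krt81, Krt83 and Krt86, so its signal cannot be given to 1 gene. The Krt83 probe was well above background on Myd88-KO array 2 alone.

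The probe named for Krt81 read 0.09 and 0.14 on the Myd88-KO arrays and -0.48 and -0.44 on the Wildtype arrays. The groups were well separated, and the difference of 0.57 (standard error 0.098, 95% interval 0.29 to 0.85) had an unadjusted p of 0.00528 and an adjusted p of 0.201 in limma. The probe named for Krt85 read 2.54 and 2.46 against 2.18 and 2.04, a difference of 0.39 (standard error 0.11, unadjusted p = 0.0279, adjusted p = 0.255). Of the other Krt85 probes, one read on all 4 arrays gave 0.08 and one read on 1 array gave -0.90, so the probes of Krt85 disagreed. The mean over its probes was -0.15, the reverse of the sign of the probe tested. Krt86, a type II hair keratin, read -1.48 and -1.43 against -2.24 and -1.52, a difference of 0.42 (standard error 0.28). Without Wildtype array 1 it was 0.07, and without Wildtype array 2 it was 0.78.

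Krt73, a type II keratin of the inner root sheath, read 0.91 and 0.74 against 0.44 and 0.44, a difference of 0.38 (standard error 0.11, unadjusted p = 0.0315, adjusted p = 0.262 in limma). Both Myd88-KO arrays exceeded both Wildtype arrays. Krt31, a type I hair keratin, read -1.50 and -1.48 against -1.34 and -1.44 and differed by -0.10 (95% interval -0.39 to 0.19). Krt36, also a type I hair keratin, was well above background on both Wildtype arrays, at -3.23 and -3.75, and on neither Myd88-KO array. It was at least 1.42-fold lower there, a bound in which each Myd88-KO array counts at the dimmest signal that passed as well above background there, or at the probe's own signal where that was higher. The measured difference was -0.89 (unadjusted p = 0.0237, adjusted p = 0.246). A brighter Krt36 probe, read on 1 array of each group and so not tested, gave -0.17. With normexp background correction the difference of Krt36 was 0.00092.

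Krt28, a type I keratin of the inner root sheath, read -6.27 and -2.95 on the Myd88-KO arrays and -3.05 and -4.20 on the Wildtype arrays. The first of these values is not well above background, so Krt28 too entered the test only through the Wildtype arrays. That value alone places the difference at -0.98 with a standard error of 1.3. Without Myd88-KO array 1 the difference was 0.68. Of the 5 members read on all 4 arrays, 3 had an unadjusted p under 0.05 upward in limma and none downward. The shares of all genes so read were 10.2% and 5.89%. The median over the 7 genes tested was 0.38, but it was 0.07 without Wildtype array 1 and -0.10 with the mean of all probes of a gene. The type II hair keratins are closely related in sequence, so the probes of Krt81 and Krt85 may share signal and may not be separate members of that count.

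**Figure D4:**
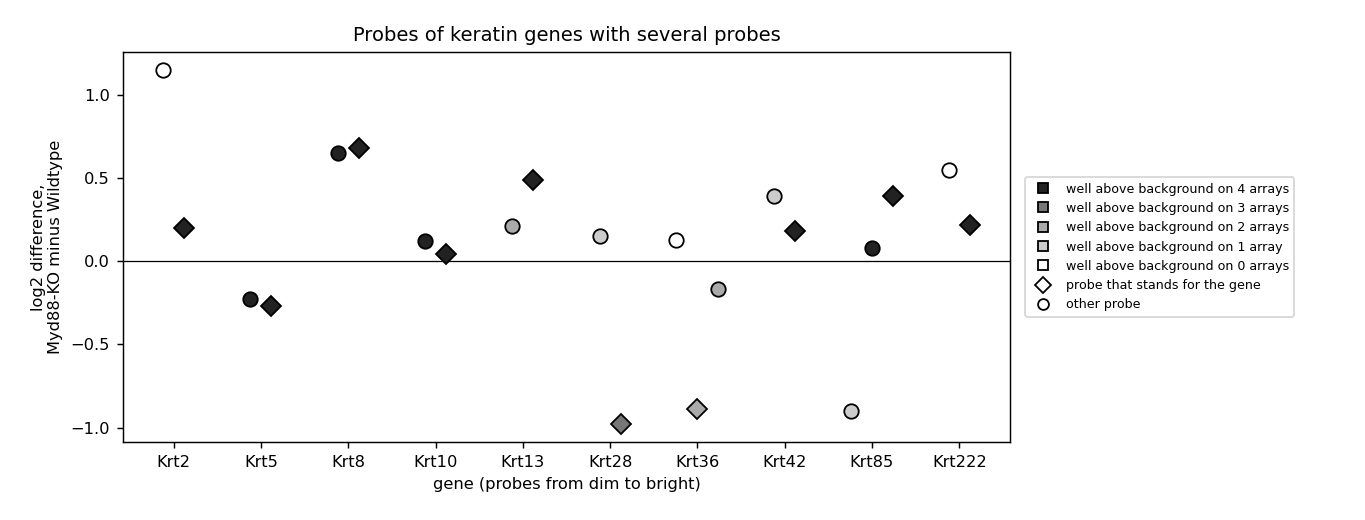
Log2 difference, Myd88-KO minus Wildtype, of each probe of the 10 tested keratin genes that have several probes, shaded by the number of arrays on which the probe was well above background, with diamonds for the probe that stands for the gene. The probes of Krt8 lie together at 0.65 and 0.68, and those of Krt85 spread from -0.90 to 0.39.

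Krt42, a type I keratin of nail, read -1.15 and -0.86 against -0.90 and -1.47, a difference of 0.18 with overlapping groups. Krt222, a keratin-like gene assigned to neither type, read 4.21 and 4.38 against 3.91 and 4.23, a difference of 0.22 (95% interval -0.23 to 0.68). The Krt222 probe holds a run of 22 bases of alternating C and A and shares a run of 20 bases with 25 other probes of the array. Its other probe was well above background on no array, so the level of Krt222 is uncertain.

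Over all keratins tested, 17 (68%) lay above 0 and 8 below, while 59.6% of all genes tested lay above 0. The median difference was 0.22 for keratins and 0.06 for all genes, and the median size was 0.32 and 0.20. None of the 25 exceeded 1 in size, beside 4.79% of all genes. The arrays of the groups did not overlap for 17 keratins (68%), 11 with higher and 6 with lower values on the Myd88-KO arrays, beside 52% of all genes, 33.2% higher and 18.7% lower. Of the 23 keratins read on all 4 arrays, 17 lay above 0 and 6 below, 11 had higher and 5 lower values without overlap, and the median was 0.28. The shares of all genes so read were 61.9% above 0, 35.1% higher and 17.9% lower without overlap, with a median of 0.07. Of type I keratins, 14 of 25 were tested, with 8 above and 6 below 0, a median of 0.07, and 2 with an unadjusted p under 0.05 in each direction. They include Krt28 and Krt36, both below 0, which entered the test only through the Wildtype arrays. Of the 12 type I keratins read on all 4 arrays, 8 lay above and 4 below 0, with a median of 0.14. Of these 12, 2 had such a p upward and 1 downward. Of type II keratins, 10 of 21 were tested, all read on all 4 arrays, with 8 above and 2 below 0 and a median of 0.38. By the same measure 5 were upward and 1 downward. The shares by that measure were 9.82% upward and 6.83% downward of all genes tested, and 10.2% and 5.89% of those read on all 4 arrays. No test was made between the types.

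Because detection differed within the groups, arrays of like detection were also set against each other, Myd88-KO array 1 minus Wildtype array 2 and Myd88-KO array 2 minus Wildtype array 1. Krt8 gave 0.75 and 0.62 in these pairs, Krt18 0.49 and 0.59, Krt81 0.52 and 0.62, and Krt15 -0.92 and -0.95. The difference over all arrays is the mean of the 2 pair differences, so a likeness between them is partly built in. These keratins also had the smallest unadjusted p of the 25 in limma. For 20 of the 25 keratins (80%) the sign was the same in both pairs, beside 68.6% of all genes tested. Genes whose groups do not overlap, 68% of the keratins and 52% of all, must have the same sign in both pairs. The count of signs is therefore not separate from the count without overlap. Krt9, Krt10, Krt14, Krt28 and Krt222 had opposite signs.

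The proteins that tie keratin filaments to desmosomes and hemidesmosomes were examined as a related group. Of 14 tested, all read on all 4 arrays, 12 lay above 0 and 2 below, with a median of 0.25. Among all genes so read 61.9% lay above 0. In limma 2 of the 14 had an unadjusted p under 0.05 upward, beside 10.2% of all genes so read. None had one with median scaling or with the replicate number as a block. Fam83h, which organizes the keratin cytoskeleton, read 2.75 and 2.69 against 2.31 and 2.44 (difference 0.34, unadjusted p = 0.0368, adjusted p = 0.272 in limma). Pkp3, a plakophilin of desmosomes, read 6.80 and 6.72 against 6.41 and 6.48 (difference 0.31, unadjusted p = 0.0413, adjusted p = 0.282). The integrin subunit gene Itga6 of hemidesmosomes stood at 0.34 and Col17a1, a hemidesmosomal collagen, at -0.41, without an unadjusted p under 0.05. Of 17 genes of the cornified envelope, the cross-linked shell of dead surface cells, 3 were tested, and Cnfn, Tgm3 and Sbsn differed by 0.20, 0.18 and 0.17. Of the keratins with a letter in their names, Krt6b was tested and differed by 0.23, while Krt6a, Krt33a and Krt33b were not.

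Markers of other cells also differed between the groups. With whole dissected glands, the tissue sampled, the number of cells of a type and the RNA per cell cannot be told apart. Of all genes read on all 4 arrays, 61.9% lay above 0. In limma 10.2% of them had an unadjusted p under 0.05 upward and 5.89% downward. Of 9 genes listed as acinar, all so read, 8 lay above 0 and 5 had such a p upward, with a median of 0.34. Smgc, a secreted mucin-like product, stood at 1.57 and Lpo, the gene of salivary peroxidase, at 0.44. Aqp5 and Bhlha15 stood at 0.17 and 0.03, and Muc19 was the 1 below 0, at -0.13. The labels name submandibular and sublingual glands, so the list cannot be given to the acini of 1 gland. Which cells made the RNA of each listed gene, Smgc included, was not tested. The median of these 9 genes was 0.10 with 2 upward under quantile normalization, and 1 was upward with median scaling or with the replicate number as a block. Leaving out 1 array gave 1 to 2 upward. The log2 of their summed signal was 12.56 and 12.53 on the Myd88-KO arrays and 12.06 and 12.15 on the Wildtype arrays, and that of the 5 simple keratins was 8.89 and 8.94 against 8.38 and 8.42. Both sums were thus higher on each Myd88-KO array. Of 8 genes of granular convoluted tubules, 4 lay on each side of 0 with a median of -0.03, and Klk1b9 was lowest at -0.60. The 7 myoepithelial genes had a median of -0.03, from -0.34 for Actg2 to 0.26 for Tagln, and none of either list had an unadjusted p under 0.05.

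Of 12 skeletal muscle genes tested, 7 were read on all 4 arrays, and all of these lay below 0 with a median of -3.45, 6 of them with an unadjusted p under 0.05. Among all genes so read, 61.9% lay above 0 and 5.89% had such a p downward in limma. Tnnc2, a troponin of fast muscle, stood at -5.99. Myh4, a fast myosin, was well above background on the Wildtype arrays alone and at least 218-fold lower on the Myd88-KO arrays. Over all 12 genes limma gave 11 lower with an unadjusted p under 0.05, beside 6.83% of all genes tested. The methods' t-test gave 1, beside 4.15%. The 12 include genes that entered the test only through the Wildtype arrays, so the filter favoured lower Myd88-KO values for them. The log2 of the summed signal of all 12 was 1.97 and 2.06 against 4.78 and 7.23. Of 12 B and T lymphocyte genes, 7 were read on all 4 arrays, and all of these lay below 0 with a median of -0.90, 5 of them with an unadjusted p under 0.05. Ms4a1, a B cell surface protein, was well above background on the Wildtype arrays alone and at least 28.5-fold lower on the Myd88-KO arrays. Their summed signal was 2.88 and 3.05 against 4.98 and 4.26 on the log2 scale. The study's flow cytometry went the other way, with more B cells and IgA+ plasma cells in submandibular glands of male Myd88-deficient mice. It measured cells rather than RNA, in other samples, and the reason for the difference was not tested. Of 7 adipocyte genes all lay below 0 and 3 had an unadjusted p under 0.05 (median -0.76, Pparg -1.17, Plin1 -1.09), and of 6 fibroblast genes 5 lay below 0 and 4 had such a p (median -0.46, Lum -0.83, Col1a1 -0.56). The methods' t-test gave such a p downward for 0 adipocyte and 3 fibroblast genes, beside 4.15% of all genes. Median scaling gave it for 2 and 0, beside 3.38%. In the main setting no gene of these 4 lists passed the adjusted threshold. Trended, robust moderation called 6 lymphocyte, 3 fibroblast and 1 muscle gene, beside 2.16% of all genes. With normexp 3, 1 and 1 were called, beside 0.354%. Median scaling called 8 lymphocyte and 11 muscle genes, beside 1.8%. The lymphocyte and muscle lists include genes that entered the test only through the Wildtype arrays. The part of these shifts in the keratin differences was not tested.

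**Figure D5:**
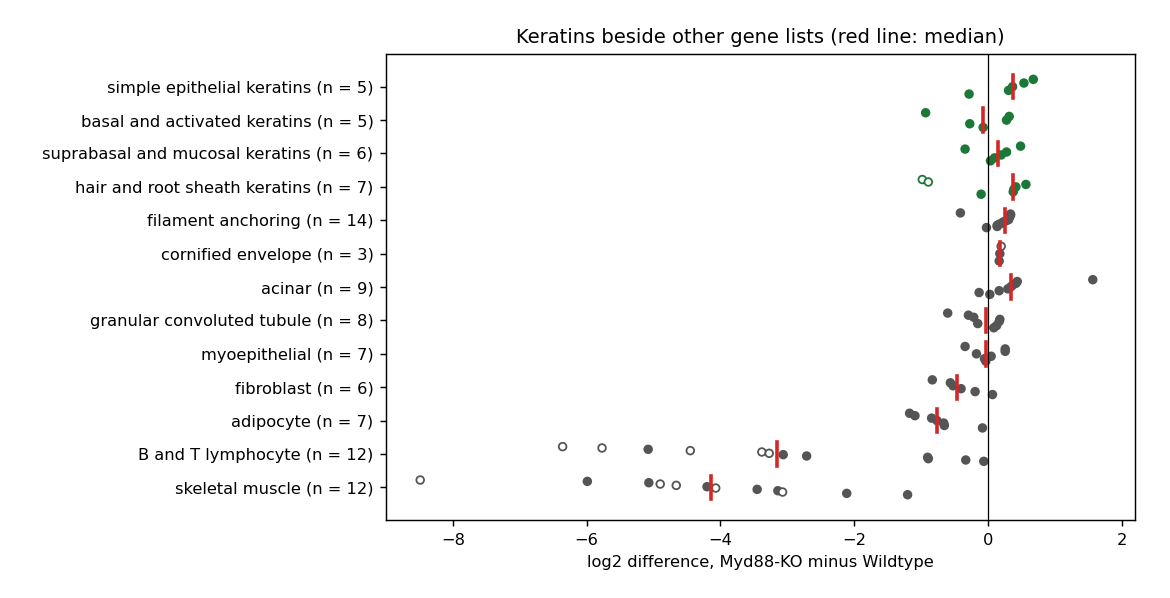
Log2 difference, Myd88-KO minus Wildtype, of each tested gene (points) in the keratin groups (green) and in the other gene lists (grey), open where the gene was not well above background on all 4 arrays, with the median of each list as a red line. The medians are 0.37 for simple epithelial keratins, 0.34 for genes listed as acinar and -4.14 for skeletal muscle genes, the last including open points.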

How the data were processed

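Total RNA of salivary glands was labelled with Cy3 and hybridized to 4 1-colour Agilent arrays. The authors deposited the scanner intensity of each array, read with Feature Extraction 10.7.3.1, whose processed signal is background-subtracted and not normalized between arrays. A processed table of the series was left out, since its 4 value columns carry names that match no single sample. Outlier spots (99 to 131 per array) were left out of 59305 non-control spots. Each array's 75th percentile was subtracted from its log2 intensity. A probe was tested if either group had it well above background on both of its arrays, and the brightest stood for its gene. In R 4.3.3, limma 3.58.1 (lmFit, eBayes) compared the groups over all genes, and p-values were adjusted by Benjamini-Hochberg at 0.05. The procedure was run on simulated data whose planted differences exceeded every keratin difference of the main setting. Recovery of differences as small as those of the keratins was not tested. Differences are Myd88-KO minus Wildtype. All keratins on every array or with an unadjusted p under 0.05 are named in full, and of other lists the 2 largest differences and some more chosen after their values were seen, except a few items not reported here. Gene symbols of listed transcripts came from RefSeq (GRCm38.p6). The members and lists were chosen with earlier results of these data known.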

Additional observations from a re-analysis of the deposited data

How the results depend on the processing

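With 2 arrays a group, no single keratin difference is firm, and dim keratins were read poorly on Myd88-KO array 1 and Wildtype array 2. In the alternatives tried other than trended and robust moderation (2 keratins called), 0 keratins passed the adjusted threshold, with 482 genes called in that setting, 402 with median scaling, 79 with normexp and 1 with the methods' t-test. Against 7 higher and 3 lower keratins without adjustment, median scaling gave 0 and 0, with 4 keratins not overlapping instead of 17, no filter on dim probes gave 3 and 1, and the methods' t-test gave 7 and 2. With median scaling limma gave every keratin the same standard error, 0.54, and Krt8 and Krt15 still stood at 0.63 and -0.99. With the replicate number as a block, 3 were higher and 1 lower. Arrays of the same number did not deviate together (correlation -0.37), so the number was not taken as a pairing. A crossed pairing, added after seeing the data, gave 6 higher and 2 lower. Leaving out 1 array gave 3 to 4 higher, 1 to 3 lower and a median of 0.14 to 0.32. The lowest count of higher keratins, 3, came without Myd88-KO replicate 1, and the highest and lowest medians without Myd88-KO replicate 1 and 2. Without Wildtype replicate 1 it was 4 higher and 1 lower, and without Wildtype replicate 2, 4 and 2. Of all genes with an unadjusted p under 0.05, 59% were higher, against 49.3% with the percentile over detected probes, 50.6% with quantile normalization and 24.1% with median scaling.

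The sign turned in 15 cases, all of keratins without an adjusted call. Krt28 was 0.04 and Krt36 0.00092 with normexp, Krt10 was -0.0025 with the percentile over detected probes and -0.01 with median scaling, and Krt85 was -0.15 as the mean of its probes. Without Myd88-KO replicate 1 Krt28 was 0.68. Without Myd88-KO replicate 2 Krt2 was -0.28, Krt10 -0.05 and Krt14 0.01. Without Wildtype replicate 1 Krt9 was -0.03 and Krt10 -0.08, and without Wildtype replicate 2 Krt2 was -0.12, Krt14 0.11, Krt42 -0.11 and Krt80 -0.02. With 1 array left out, the range was -0.28 to 0.67 for Krt2, -0.03 to 0.23 for Krt9, -0.08 to 0.17 for Krt10, -0.25 to 0.11 for Krt14, -2.64 to 0.68 for Krt28, -0.11 to 0.47 for Krt42 -0.02 to 0.57 for Krt80, and, without a change of sign, -0.42 to -0.13 for Krt5, 0.19 to 0.78 for Krt13, 0.20 to 0.41 for Krt23, -0.15 to -0.05 for Krt31, -1.15 to -0.63 for Krt36, 0.07 to 0.78 for Krt86 and 0.07 to 0.38 for Krt222. The cause was not tested. Krt7, Krt8, Krt15, Krt17, Krt18, Krt73, Krt79 and Krt81 kept their sign in every setting tried. So did Krt5, Krt13, Krt16, Krt19, Krt23, Krt31, Krt86 and Krt222, which had no unadjusted p under 0.05 in the main setting. A kept sign thus does not set the former apart.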
